A study of Mus musculus with 16 samples.

Results

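The genes described here encode 10 subunits of the mitochondrial ATP synthase: Atp5a1, Atp5b, Atp5c1, Atp5d, Atp5e, Atp5f1, Atp5g1, Atp5o, Atp5h and Atp5j. They were chosen by symbol as parts of 1 enzyme, not by a threshold on their values, though with earlier results of these data known, from the 30153 genes of the deposited table. All 10 were in the table, and all 10 were among the 11415 genes kept, which had at least 1 TPM in at least 3 hearts. The table gives TPM, the usual measure of transcript abundance relative to the whole library, which is corrected for transcript length and keeps no sequencing depth, so no counting error can be given and every error below is a spread between hearts.

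ATP synthase, or complex V, sits in the inner mitochondrial membrane, where protons flowing back through its ring of c subunits turn a central stalk, and the turning stalk drives the catalytic head to make ATP from ADP and phosphate. A peripheral stalk holds the head still against the rotating parts. Nearly all subunits are encoded in the nucleus and imported, 2 are encoded by mitochondrial DNA, and heart muscle, which beats on oxidative metabolism, is among the tissues richest in the complex.

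The 16 hearts came from 4 groups of mice. They were 5 aged Hap-I mice fed a western diet, 4 aged Hap-I mice with no diet named, 4 adult Hap-I mice whose sample labels name the western diet, and 3 C57 adult mice. The series design text lists the adult Hap-I group without a diet, and each comparison with that group is subject to this conflict. All 16 samples carry the strain label C57/BL6. Per the series title, mice of the series overexpress the human angiotensin type 1 receptor, a transgene that was not analysed here. The Hap-I groups were taken to carry it and the C57 adult group to lack it. The labels give neither the promoter that drives the transgene nor ages in months, sex, litter or batch. No C57 group was aged or fed the western diet, so in the aged Hap-I against C57 comparisons age, transgene and diet cannot be told apart. By the sample labels, transgene and diet cannot be told apart in adult Hap-I western-diet against C57 adult hearts. The mean of the 3 Hap-I groups against C57 adult hearts mixes transgene, age and diet.

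Size factors that put the libraries on a common scale ranged from 0.682 to 1.239, and values divided by them are called scaled TPM. For single genes, whether groups overlap was judged on scaled TPM. No 2 libraries were identical. All 15 markers of ventricular heart muscle had a median of at least 1 scaled TPM. Y-linked transcripts were present in 2 of 5 aged Hap-I western-diet, 4 of 4 aged Hap-I, 2 of 4 adult Hap-I western-diet and 3 of 3 C57 adult hearts. Markers of atrial muscle varied widely, with their summed level between 91.6 and 204 scaled TPM in aged Hap-I western-diet hearts, 100 and 5145 in aged Hap-I hearts, 40.4 and 1186 in adult Hap-I western-diet hearts, and 235 and 6786 in C57 adult hearts. In bulk tissue, fewer cells of a type and less RNA per cell cannot be told apart.

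The subunits differed in abundance on the length-corrected scale. Over all 16 hearts Atp5b, the catalytic beta subunit, was the most abundant at 3741 ± 916 scaled TPM (SD, n = 16). It was followed by Atp5g1, a c-ring gene, at 2032 ± 309, and Atp5h, subunit d of the peripheral stalk, at 1766 ± 304. Atp5e stood at 1363 ± 266, Atp5c1 at 1156 ± 179, Atp5j at 1123 ± 247 and Atp5o at 1097 ± 159 scaled TPM, and the last 3 lay within 1 SD of each other. Atp5a1 at 797 ± 119, Atp5f1 at 663 ± 108 and Atp5d at 502 ± 64.9 scaled TPM were the lowest. The 10 transcripts together summed to 12307 ± 1482 scaled TPM in aged Hap-I western-diet hearts (n = 5), 13507 ± 1337 in aged Hap-I hearts (n = 4), 14770 ± 1323 in adult Hap-I western-diet hearts (n = 4) and 17725 ± 283 in C57 adult hearts (SD, n = 3). As a share of nuclear-encoded TPM, a measure that needs no size factor, they made up 2.16% ± 0.158, 2.50% ± 0.0656, 2.35% ± 0.190 and 2.96% ± 0.147 in the same order of groups. In all 13 Hap-I hearts the share lay between 2.01% and 2.56%, below the 2.79% to 3.05% of the C57 adult hearts.

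All 10 subunit genes had their highest group mean in C57 adult hearts, and 8 of 10 had their lowest in aged Hap-I western-diet hearts, the exceptions being Atp5g1 and Atp5j, which were lowest in aged Hap-I hearts. For 7 of 10 the means decreased in the order C57 adult, adult Hap-I western diet, aged Hap-I, aged Hap-I western diet. These orders are of scaled TPM. Without scaling all 10 genes were higher in aged Hap-I than in adult Hap-I western-diet hearts. Atp5a1 was then also higher in aged Hap-I than in C57 adult hearts. The share of nuclear-encoded TPM, too, was higher in aged Hap-I (2.50%) than in adult Hap-I western-diet hearts (2.35%).

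**Figure D1:**
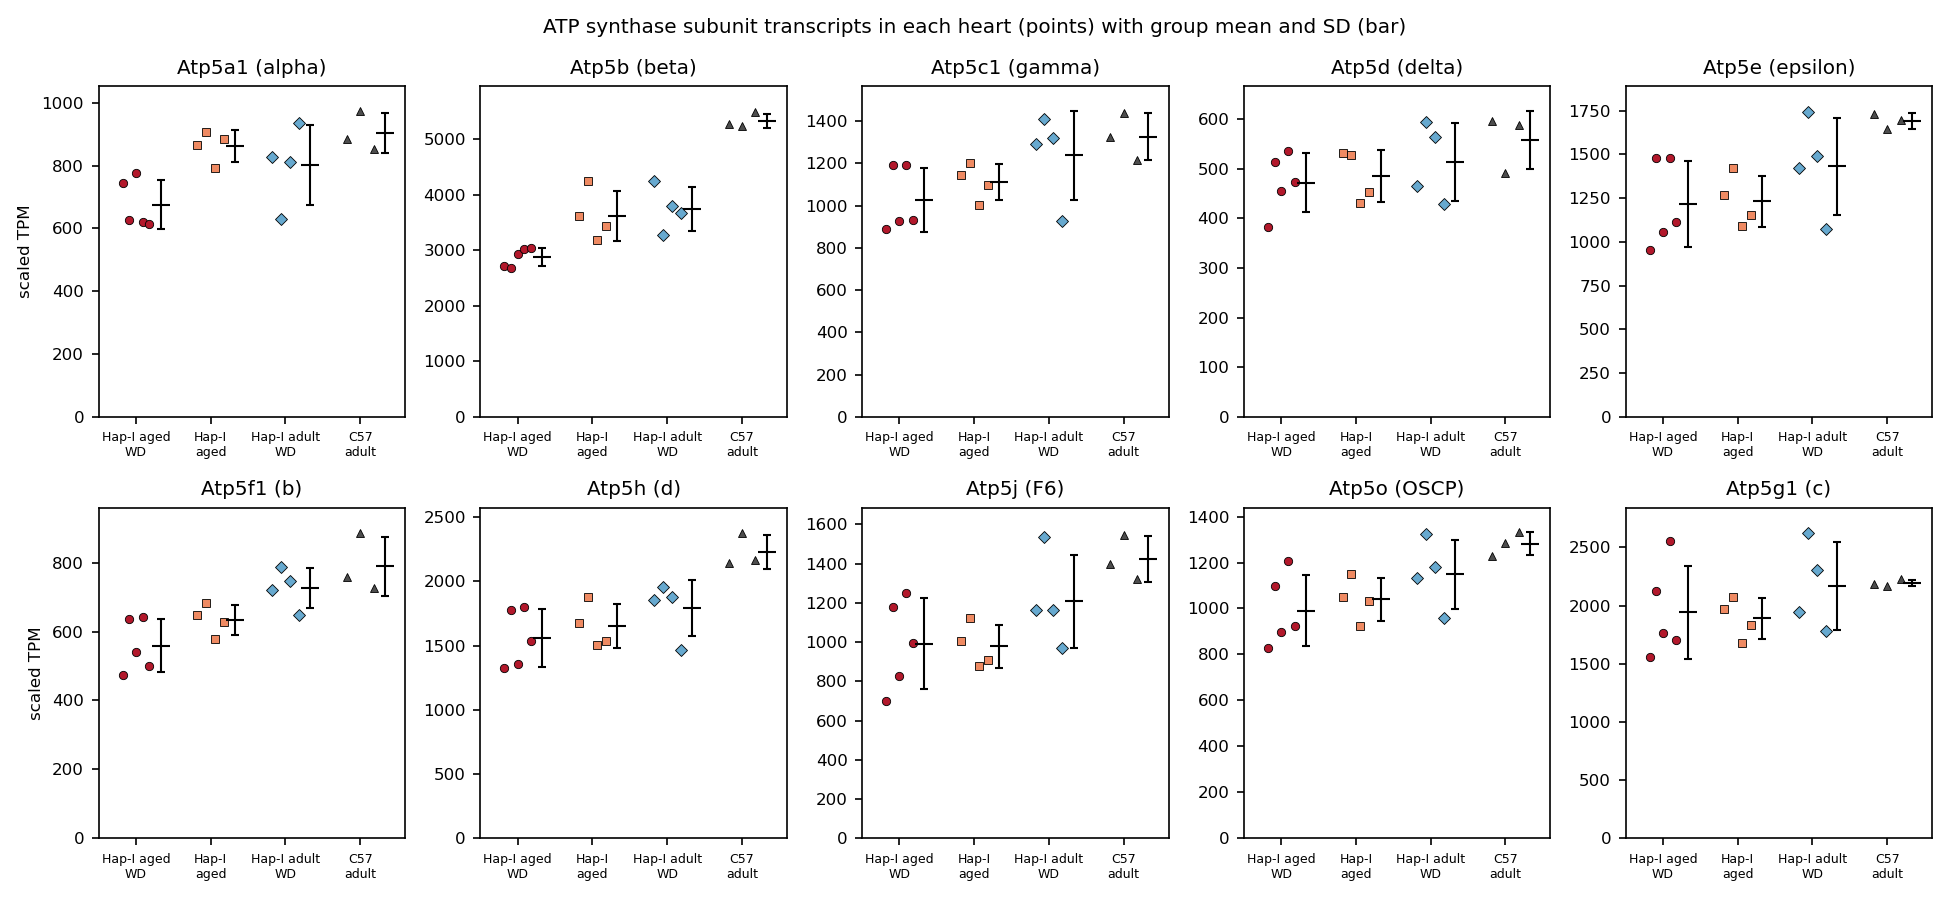
Scaled TPM of the 10 ATP synthase subunit genes in each heart, with the group mean and SD beside the points; groups run from aged Hap-I western diet on the left (n = 5), through aged Hap-I (n = 4) and adult Hap-I western diet (n = 4), to C57 adult on the right (n = 3), and each vertical axis starts at 0. For Atp5b the highest Hap-I heart stands at 4249 scaled TPM, below the 3 C57 adult hearts at 5233 to 5481. For most other subunits the scaled values of the adult Hap-I western-diet hearts reach into the C57 adult range. In unscaled TPM these 2 groups overlap only for Atp5a1, Atp5d and Atp5g1.

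The catalytic head consists of alternating alpha and beta subunits. The beta subunit, which carries the catalytic sites and is encoded by Atp5b, separated the groups most clearly. Atp5b had 2717, 2686, 2939, 3016 and 3033 scaled TPM in aged Hap-I western-diet hearts, 3608, 4249, 3191 and 3444 in aged Hap-I hearts, 4249, 3279, 3790 and 3662 in adult Hap-I western-diet hearts, and 5272, 5233 and 5481 in C57 adult hearts. Every Hap-I heart was below every C57 adult heart, and every aged western-diet heart was below every other Hap-I heart. In unscaled TPM the first of these held but the second did not. Adult Hap-I western-diet replicates 2 and 3 stood at 2236 and 3432 TPM there, and aged Hap-I western-diet replicate 3 at 3635. Atp5b (ENSMUSG00000025393) lies on chromosome 10 at 128083273 to 128090391 on the plus strand of GRCm38.

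Against C57 adult hearts, Atp5b fell 1.85-fold in aged Hap-I western-diet hearts, with a log2 fold change of -0.89 ± 0.12 (SE) and a limma adjusted p of 0.000328. It fell by 0.56 ± 0.12 on the log2 scale in aged Hap-I hearts (adjusted p = 0.0116) and by 0.51 ± 0.12 in adult Hap-I western-diet hearts (adjusted p = 0.0338). The first of these calls held in every alternative run, with log2 fold changes from -0.93 to -0.71 (adjusted p = 0.000106 to 0.0115), scaling alternatives included. The call in aged Hap-I hearts was lost without scaling (adjusted p = 0.262), under quantile normalization (adjusted p = 0.656) and without C57 adult replicate 3 (adjusted p = 0.0558). The call in adult Hap-I western-diet hearts was lost under more alternatives, among them the omission of C57 adult replicate 1 (adjusted p = 0.115), 2 (0.0585) or 3 (0.127), aged Hap-I replicate 1 (0.0530) or 4 (0.0514) and adult Hap-I western-diet replicate 2 (0.0806) or 3 (0.0750).

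The alpha subunit, encoded by Atp5a1, binds nucleotide without catalysis and is built into the head in the same number of copies as beta. Atp5a1 had 744, 626, 776, 619 and 613 scaled TPM in aged Hap-I western-diet hearts, 867, 906, 791 and 885 in aged Hap-I hearts, 827, 629, 812 and 936 in adult Hap-I western-diet hearts, and 885, 975 and 853 in C57 adult hearts. The aged western-diet hearts were the low group, while aged Hap-I and C57 adult hearts overlapped. Its log2 fold change was -0.43 ± 0.13 in aged Hap-I western-diet against C57 adult hearts (adjusted p = 0.0272). It was -0.07 ± 0.13 in aged Hap-I hearts (adjusted p = 0.774) and -0.19 ± 0.13 in adult Hap-I western-diet hearts (adjusted p = 0.453), neither past the threshold. The Atp5a1 call was lost without any 1 of the 3 C57 adult hearts (adjusted p = 0.0724, 0.0957 and 0.0576 without replicates 1, 2 and 3) and without aged Hap-I western-diet replicate 2 (0.0534). It was also lost without scaling, under quantile normalization, with the sex or atrial covariate and with only the groups compared (adjusted p = 0.0618 to 0.796).

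The level of Atp5b relative to Atp5a1 within a heart depends on no scaling between libraries. Atp5b TPM were 3.65, 4.29, 3.79, 4.87 and 4.95 times Atp5a1 TPM in aged Hap-I western-diet hearts, 4.16, 4.69, 4.04 and 3.89 times in aged Hap-I hearts, 5.14, 5.21, 4.67 and 3.91 times in adult Hap-I western-diet hearts, and 5.95, 5.37 and 6.43 times in C57 adult hearts. The 13 Hap-I ratios, with group means of 4.31 ± 0.598, 4.20 ± 0.348 and 4.73 ± 0.598 in the order just given, were all below the 3 C57 adult ratios, which averaged 5.92 ± 0.531 (SD). This ratio was chosen after its values had been seen, so it is a description and was given no test. The annotated median transcript lengths are 1916.0 bases for Atp5b and 2572.5 for Atp5a1. Spearman's rho of expression with transcript length was -0.25 to -0.08 in C57 adult and 0.05 to 0.37 in aged Hap-I hearts. It was -0.28 to 0.42 in aged and -0.40 to 0.24 in adult Hap-I western-diet hearts. The heart at 0.42 had the lowest ratio, 3.65, and the heart at -0.40 had 5.21, below the C57 adult ratios. The part of transcript length in the ratio was not tested.

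**Figure D2:**
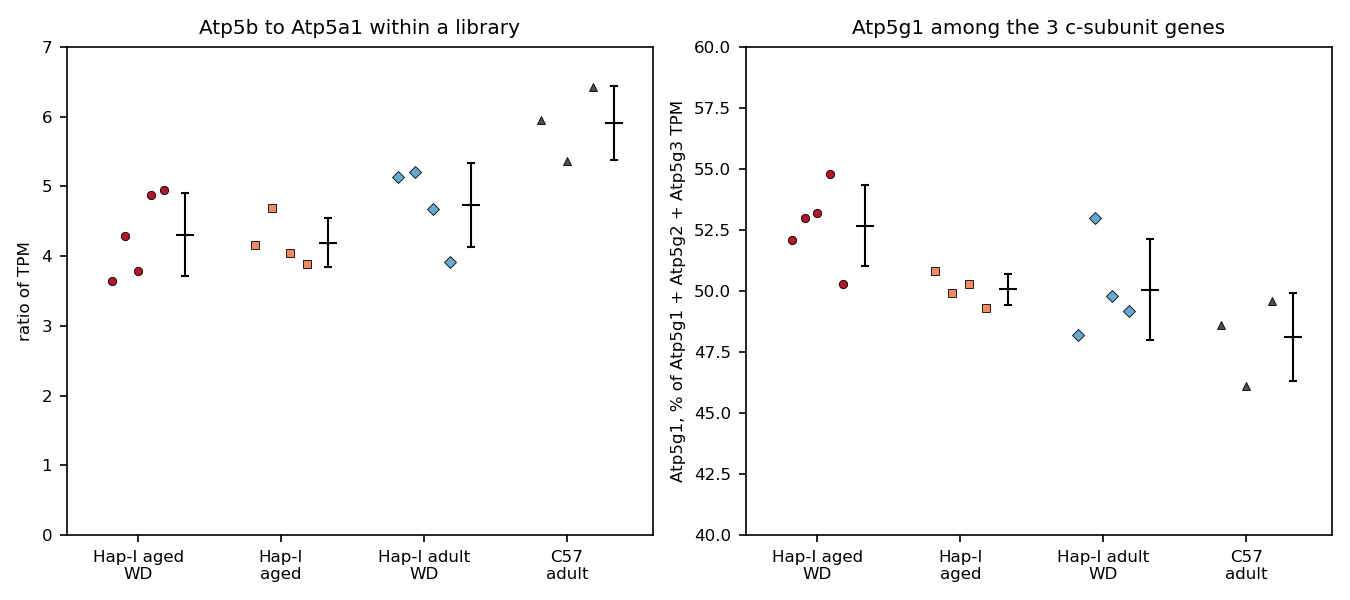
Left, the ratio of Atp5b to Atp5a1 TPM within each heart on an axis from 0; right, Atp5g1 as a percentage of the summed TPM of the 3 c-subunit genes, on an axis cropped to 40% to 60%; groups run from aged Hap-I western diet on the left to C57 adult on the right, with mean and SD beside the points. The Hap-I ratios of 3.65 to 5.21 lie below the C57 adult ratios of 5.37 to 6.43, while the Atp5g1 shares of aged Hap-I western-diet hearts, 50.3% to 54.8%, lie above the C57 adult shares of 46.1% to 49.6%.

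The central stalk is made of the gamma, delta and epsilon subunits, encoded by Atp5c1, Atp5d and Atp5e. Gamma is the shaft that rotates inside the head, and delta and epsilon fix it to the c ring. Atp5e had 953, 1478, 1057, 1481 and 1114 scaled TPM in aged Hap-I western-diet hearts, 1268, 1420, 1091 and 1152 in aged Hap-I hearts, 1422, 1745, 1492 and 1073 in adult Hap-I western-diet hearts, and 1733, 1643 and 1695 in C57 adult hearts. Both aged groups were below the C57 adult range, and 1 adult Hap-I western-diet heart was above it. In unscaled TPM that heart, replicate 2, stood at 1190, below the C57 adult hearts at 1576 to 1841. Atp5e fell in aged Hap-I western-diet hearts against C57 adult hearts, with a log2 fold change of -0.50 ± 0.17 (adjusted p = 0.0484), close to the threshold. The call was kept in only 4 of the 16 fits that left out 1 heart, those without aged Hap-I western-diet replicate 2 or 4 or adult Hap-I western-diet replicate 2 or 4, and the other 12 gave an adjusted p of 0.0529 to 0.135. Of the 14 other alternatives 7 kept it. Atp5c1 averaged 1026 ± 153 scaled TPM in aged Hap-I western-diet hearts, 1111 ± 84.9 in aged Hap-I hearts, 1237 ± 211 in adult Hap-I western-diet hearts and 1326 ± 112 in C57 adult hearts. Its log2 fold change in aged Hap-I western-diet against C57 adult hearts was -0.38 ± 0.15 and did not pass (adjusted p = 0.0747), though the 2 groups did not overlap. Atp5d was the flattest of the 3 across groups, at 472 ± 59.4, 486 ± 51.9 and 513 ± 78.4 scaled TPM in the Hap-I groups in the same order and 558 ± 58.3 in C57 adult hearts, and it was called in none of the 7 comparisons.

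The peripheral stalk that holds the head still is built from subunits b, d, F6 and OSCP, encoded by Atp5f1, Atp5h, Atp5j and Atp5o. Atp5f1 had 474, 637, 541, 642 and 501 scaled TPM in aged Hap-I western-diet hearts, 647, 684, 579 and 628 in aged Hap-I hearts, 721, 788, 746 and 649 in adult Hap-I western-diet hearts, and 757, 885 and 725 in C57 adult hearts. In scaled TPM all 5 aged western-diet hearts were below every adult heart of either kind. In unscaled TPM they ran from 441 to 669 and overlapped the adult Hap-I western-diet hearts, at 538 to 732. They stayed below the C57 adult hearts, of which the lowest was 748. The log2 fold change of Atp5f1 in aged Hap-I western-diet against C57 adult hearts was -0.50 ± 0.12 (adjusted p = 0.00900). The call was lost under quantile normalization (adjusted p = 0.0610) and in the hearts with Y-linked transcripts alone (0.0715).

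Atp5h had 1330, 1775, 1356, 1800 and 1534 scaled TPM in aged Hap-I western-diet hearts, 1679, 1882, 1504 and 1538 in aged Hap-I hearts, 1859, 1959, 1880 and 1470 in adult Hap-I western-diet hearts, and 2142, 2378 and 2170 in C57 adult hearts. As with Atp5b, all 13 Hap-I hearts were below all 3 C57 adult hearts. Atp5h fell in aged Hap-I western-diet hearts against C57 adult hearts, with a log2 fold change of -0.53 ± 0.14 (adjusted p = 0.0131). The call was lost without C57 adult replicate 2 (0.0506), under quantile normalization (0.350) and in the hearts with Y-linked transcripts alone (0.110). In the mean of the 3 Hap-I groups it was -0.43 ± 0.12 (adjusted p = 0.0243), a call lost without any 1 of the C57 adult hearts (adjusted p = 0.0802 to 0.0953), under quantile normalization (0.486) and with the sex (0.0549) or atrial covariate (0.0522).

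Atp5j had 700, 1179, 827, 1252 and 994 scaled TPM in aged Hap-I western-diet hearts, 1007, 1121, 877 and 907 in aged Hap-I hearts, 1163, 1537, 1164 and 969 in adult Hap-I western-diet hearts, and 1399, 1548 and 1320 in C57 adult hearts. Aged hearts on either diet were below the C57 adult hearts, and 1 adult Hap-I western-diet heart was among the C57 adult hearts. In unscaled TPM that heart, replicate 2, stood at 1048, below the C57 adult hearts at 1361 to 1487. The log2 fold change of Atp5j was -0.55 ± 0.18 in aged Hap-I western-diet against C57 adult hearts (limma adjusted p = 0.0428). It was -0.54 ± 0.19 in aged Hap-I hearts, which did not pass (limma adjusted p = 0.0794). The call was lost without any 1 of the C57 adult hearts, without aged Hap-I replicate 1 or 4, without aged Hap-I western-diet replicate 1, 3 or 5, or without adult Hap-I western-diet replicate 1 or 3 (adjusted p = 0.0538 to 0.129), and 8 of the 14 other alternatives kept it. Atp5o averaged 991 ± 156 scaled TPM in aged Hap-I western-diet hearts, 1039 ± 92.8 in aged Hap-I hearts, 1148 ± 151 in adult Hap-I western-diet hearts and 1282 ± 51.3 in C57 adult hearts. Its log2 fold change in aged Hap-I western-diet against C57 adult hearts, -0.38 ± 0.13, lay just outside the threshold (adjusted p = 0.0532).

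The rotating ring is made of identical c subunits, which Atp5g1, Atp5g2 and Atp5g3 encode as precursors that differ in the import sequence removed in the mitochondrion. Atp5g1 was the only c-subunit gene among the 10 described, at 1941 ± 401 scaled TPM in aged Hap-I western-diet hearts, 1889 ± 174 in aged Hap-I hearts, 2166 ± 378 in adult Hap-I western-diet hearts and 2193 ± 28.4 in C57 adult hearts. It was called in none of the 7 comparisons, and its log2 fold change in aged Hap-I western-diet against C57 adult hearts was -0.20 ± 0.16 (adjusted p = 0.394). Atp5g3 averaged 1713 ± 264, 1867 ± 174, 2126 ± 229 and 2338 ± 154 scaled TPM in the same 4 groups, and Atp5g2 only 19.8 ± 2.33, 17.3 ± 6.13, 20.9 ± 7.79 and 30.3 ± 8.42. Atp5g3 fell by 0.46 ± 0.13 on the log2 scale in aged Hap-I western-diet hearts against C57 adult hearts (adjusted p = 0.0244). That call was lost without C57 adult replicate 1 (0.0661), 2 (0.0878) or 3 (0.0594), or without aged Hap-I western-diet replicate 3 (0.0527), and in 4 of the 14 other alternatives.

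Atp5g1 made up 52.1%, 53.0%, 53.2%, 54.8% and 50.3% of c-subunit TPM in aged Hap-I western-diet hearts, 50.8%, 49.9%, 50.3% and 49.3% in aged Hap-I hearts, 48.2%, 53.0%, 49.8% and 49.2% in adult Hap-I western-diet hearts, and 48.6%, 46.1% and 49.6% in C57 adult hearts. The aged western-diet hearts had the highest group mean and the C57 adult hearts the lowest, without overlap between these 2 groups, while single hearts of the other 2 groups fell within both ranges. The difference was 4.55 percentage points against C57 adult hearts (two-sided exact permutation p = 0.0357, the smallest this design allows) and 2.59 points against aged Hap-I hearts (exact permutation p = 0.0317). Adjusted over the 7 comparisons, each came to 0.0833 by the exact permutation test and did not pass, nor did any other comparison (exact permutation, adjusted p = 0.0833 to 0.971).

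Counted over the 10 genes, 6 fell in aged Hap-I western-diet hearts against C57 adult hearts at a limma adjusted p under 0.05 (Atp5a1, Atp5b, Atp5e, Atp5f1, Atp5h and Atp5j), and 0 rose. Of all 11415 genes tested, 9.57% fell and 12.3% rose in this comparison. The median log2 fold change was -0.46 for the 10 genes and 0.00 for all genes. The values of the 10 ran from -0.89 to -0.20, all negative in the main scaling and without scaling, whereas under quantile normalization Atp5d (0.00) and Atp5g1 (0.18) were not below zero, the median was -0.10 and 1 gene, Atp5b, stayed called. Without C57 adult replicates 1, 2 or 3 the count was 3, 2 or 3 of 10. For 8 of 10 the aged western-diet hearts were all below the C57 adult hearts, as were 11.2% of all genes.

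Several measures moved with this comparison, in which 9.57% of all genes fell and 12.3% rose. Ventricular muscle markers summed to 57914 to 71194 scaled TPM in aged Hap-I western-diet hearts and 72284 to 80428 in C57 adult hearts, with 3 of 15 called lower and 1 higher, and 5 of 8 atrial markers fell. Fibroblast markers summed to 321 to 740 scaled TPM in aged Hap-I western-diet hearts and 866 to 1109 in C57 adult hearts, with 2 of 9 called lower and a median log2 fold change of -0.62. Adipocyte markers summed to 364 to 647 and 674 to 858 in the same groups, with 2 of 6 tested called lower and a median of -0.95. Smooth muscle and pericyte markers had 3 of 7 tested called lower, but their sums overlapped, at 155 to 263 (median 210) and 211 to 226 (median 218). Of 8 endothelial, 7 leukocyte and 5 erythroid markers tested 0 were called, and all 5 erythroid values were positive. Of 3 skeletal muscle markers tested 1 was called higher. The part of these markers in the subunits' values was not tested beyond the atrial covariate. With the atrial level as a covariate the median of the 10 genes was -0.57 and 3 of 10 were called. In the hearts with Y-linked transcripts alone it was -0.37 with 2 of 10 called, Atp5b among them at -0.82 (adjusted p = 0.0115). Fold changes of all genes also rose with transcript length in this comparison (Spearman's rho 0.23 across 11343 genes, which are not independent replicates). After a correction for length, 7 of 10 were called and the median was -0.40.

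In aged Hap-I hearts against C57 adult hearts, 1 of 10 genes fell, Atp5b, where 4.06% of all genes fell. An unadjusted p under 0.05 was reached by 6 of 10, beside 27.8% of all genes. The median log2 fold change was -0.31, beside -0.01 for all genes. For 8 of 10 the groups did not overlap, the aged Hap-I hearts being lower, as for 16.1% of all genes. All 10 values were negative in the main scaling, but Atp5a1 was positive without scaling (0.10), and Atp5a1, Atp5c1, Atp5d and Atp5g1 were between 0.01 and 0.22 under quantile normalization. In adult Hap-I western-diet hearts against C57 adult hearts, 1 of 10 fell, again Atp5b, where 1.5% of all genes fell. The median was -0.18, beside 0.01 for all genes. In scaled TPM the groups were apart for Atp5b and Atp5h, that is 2 of 10 genes, beside 8.2% of all genes. Unscaled, they were apart for Atp5c1, Atp5e, Atp5f1, Atp5o and Atp5j as well, with the median of all genes also below zero. The share of all genes apart without scaling was not computed. Under quantile normalization Atp5a1, Atp5c1, Atp5f1 and Atp5g1 turned positive in this comparison, at 0.01 to 0.17. In the mean of the 3 Hap-I groups against C57 adult hearts, 2 of 10 fell, Atp5b at -0.66 ± 0.10 (adjusted p = 0.00145) and Atp5h, where 6.31% of all genes fell. In scaled TPM every Hap-I heart was below every C57 adult heart for these 2 genes, an arrangement found for 3.12% of all genes. Unscaled, Atp5e, Atp5f1, Atp5o and Atp5j had it too. These comparisons share the 3 C57 adult hearts, so their values are not independent of each other.

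**Figure D3:**
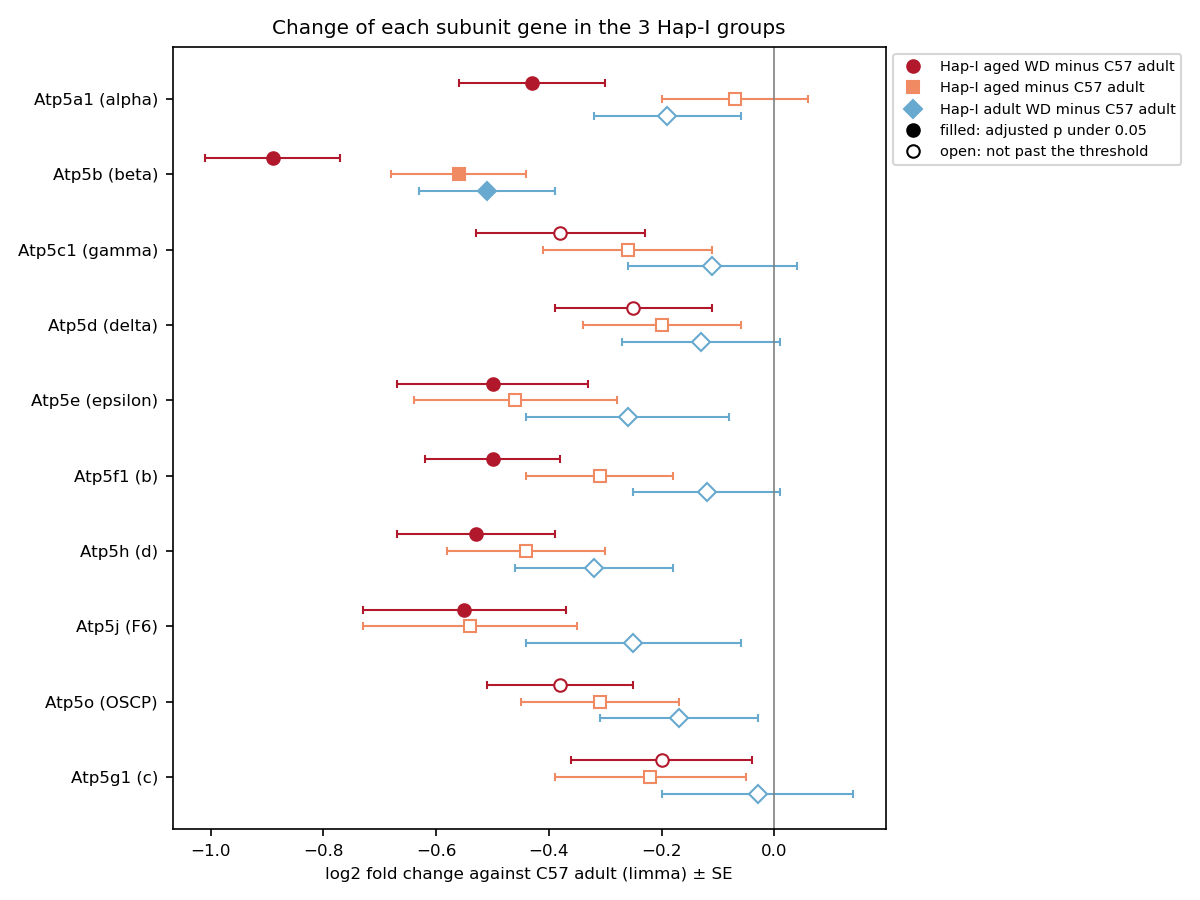
Log2 fold change with its standard error for the 10 subunit genes in aged Hap-I western-diet, aged Hap-I and adult Hap-I western-diet hearts, each against C57 adult hearts; filled symbols passed a limma adjusted p of 0.05. Atp5b is the only gene filled in all 3 comparisons, and all values are negative in this scaling, while under quantile normalization up to 4 genes a comparison turn positive.

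Within the Hap-I hearts none of the 10 genes was called. The question of the diet in aged animals is addressed by aged Hap-I western-diet against aged Hap-I hearts, where 0 of 10 passed by limma, and 0.166% of all genes were called. An unadjusted p under 0.05 was reached by 2 of 10, beside 15.9% of all genes. These were Atp5a1 at -0.36 ± 0.12 (adjusted p = 0.166) and Atp5b at -0.33 ± 0.11 (adjusted p = 0.172), and they were also the 2 genes whose groups did not overlap, as for 3.9% of all genes in the lower direction. The other 8 genes ran from -0.19 to 0.02, and the median of the 10 was -0.08, which turned to 0.02 in the hearts with Y-linked transcripts alone. The question of age on the diet is addressed by aged against adult Hap-I western-diet hearts, where 0 of 10 passed and 2.39% of all genes were called. An unadjusted p under 0.05 was reached by 2 of 10, beside 19.7% of all genes. Here Atp5b and Atp5f1 each stood at -0.38 ± 0.11 (limma adjusted p = 0.0710). In scaled TPM every aged heart was below every adult heart for both genes, an arrangement that 3% of all genes shared. In unscaled TPM the groups overlapped for both. With library weights, 3 of 10 were called in that comparison, and without a variance trend 1. All 10 were negative, with a median of -0.24, but Atp5d turned positive without scaling (0.03) and under quantile normalization (0.01), where Atp5g1 did too (0.01).

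In aged Hap-I against adult Hap-I western-diet hearts 0 of 10 were called by limma, while 2.14% of all genes were called. An unadjusted p under 0.05 was reached by 0 of 10, beside 21.5% of all genes. The groups were apart for 0 of 10, while for 7.6% of all genes every aged Hap-I heart was below every adult Hap-I western-diet heart. The median was -0.14, and Atp5a1 had the only positive value, 0.12 ± 0.12. Without scaling 10 of 10 values were above zero in this comparison, with a median of 0.21, while the median of all genes moved to 0.27, so that the median of the subunits stayed below that of all genes. Under quantile normalization Atp5b (0.32), Atp5d (0.02) and Atp5h (0.08) turned positive. This comparison had the strongest relation of fold change to transcript length among the 7 (Spearman's rho 0.37 across 11343 genes).

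Over the 16 hearts the median of the 45 pairwise Pearson correlations of log2 values was 0.81, and that of deviations from the group means was 0.84. Atp5a1 stood apart, with a median correlation of 0.10 over all hearts and -0.58 in the deviations with the 9 other genes, and Atp5b with 0.62 and 0.13. These are descriptions over 16 hearts that share library depth and composition. Aged Hap-I western-diet replicate 1 had the lowest scaled TPM of all 16 hearts for 8 of the 10 genes. The exceptions were Atp5a1 and Atp5b. Its size factor was 1.236, and in unscaled TPM it stayed the lowest only for Atp5j, at 865. Unscaled, Atp5c1 stood at 1097 TPM in this heart and 819 in aged Hap-I western-diet replicate 5, and Atp5g1 at 1930 and 1496. Replicate 1 of that group also had the strongest positive relation of expression to transcript length, with a rho of 0.42. The opposite end was adult Hap-I western-diet replicate 2 at -0.40, which held the highest scaled TPM for 2 of the 10 genes. Its size factor was 0.682, and in unscaled TPM its values for these, Atp5e at 1190 and Atp5g1 at 1792, were not the highest. Annotated transcripts of Atp5a1 and Atp5b have median lengths of 2572.5 and 1916.0 bases, against 421.0 for Atp5e, 625.0 for Atp5h and 711.0 for Atp5j, although Atp5g1 at 2675.5 varied with the short ones. The part of transcript length in these correlations was not tested.

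Of 6055 other genes with a mean of at least 5 scaled TPM, those most like the mean log2 level of the 10 subunits over 16 hearts were Ndufb10 (Pearson's r = 0.979), Cox5a (0.977), Atp5g3 (0.977), Psmb7 (0.968), Atp5k (0.967), 1 gene without a symbol in the name table (0.965), Pxmp2 (0.960) and Ndufs3 (0.959). Ndufb10 and Ndufs3 encode subunits of complex I and Cox5a a subunit of complex IV. Psmb7 encodes a proteasome subunit and Pxmp2 a peroxisomal membrane protein. Among the least like were Amotl1 (-0.941), Mark2 (-0.934) and Kdm2a (-0.923).

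The complex has 7 other nuclear subunit genes in the table. Of these, 3 fell and 0 rose in aged Hap-I western-diet hearts against C57 adult hearts, with a median of -0.56, where 9.57% of all genes fell and 12.3% rose. The 7 values were negative in every scaling, with 5 called without scaling and 1 under quantile normalization, where the median was -0.19. With the sex covariate or only the groups compared 1 of 7 was called, and in the hearts with Y-linked transcripts alone 0. They were Atp5k, subunit e of the membrane part, at -0.63 ± 0.15 (adjusted p = 0.00784), Atp5g3, and Atp5mpl, a small membrane subunit, at -0.58 ± 0.19 (adjusted p = 0.0401). The Atp5k call held in all fits that left out 1 heart and was lost in the hearts with Y-linked transcripts alone (adjusted p = 0.0642). That of Atp5mpl was lost in 6 of the 14 alternatives that leave out no single heart, and without any 1 of the C57 adult hearts, without aged Hap-I replicate 1 or 4, without aged Hap-I western-diet replicate 1, 3 or 5, or without adult Hap-I western-diet replicate 1 or 3 (adjusted p = 0.0507 to 0.112). Atp5k had 959, 1259, 927, 1282 and 942 scaled TPM in aged Hap-I western-diet hearts and 1595, 1595 and 1749 in C57 adult hearts, with no overlap. The values of Atp5l, Usmg5, Atp5g2 and Atp5j2 were -0.58, -0.50, -0.56 and -0.36, and none passed (adjusted p = 0.0549 to 0.276).

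The 2 subunits encoded by mitochondrial DNA, mt-Atp6 of the proton channel and the small mt-Atp8, were called in none of the 7 comparisons. mt-Atp6 had 36412, 48494, 34001, 64036 and 65607 scaled TPM in aged Hap-I western-diet hearts, 35409, 40382, 32008 and 33330 in aged Hap-I hearts, 56639, 84919, 57810 and 44951 in adult Hap-I western-diet hearts, and 38866, 48906 and 38566 in C57 adult hearts. The 2 western-diet groups were the most spread and reached the highest values. Its log2 fold change in aged Hap-I western-diet against C57 adult hearts was 0.19 ± 0.25 (adjusted p = 0.597) and turned to -0.02 with the atrial covariate, and that of mt-Atp8 was 0.45 ± 0.37 (adjusted p = 0.400). In aged Hap-I against adult Hap-I western-diet hearts mt-Atp6 was -0.76 ± 0.24 without overlap of the groups, and did not pass (adjusted p = 0.0977). Of the 31-base words of mt-Atp6, 99.5% also occur in the annotated gene Gm10925, so its level is uncertain.

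Of 8 genes for the inhibitor and for assembly, 1 fell and 0 rose in aged Hap-I western-diet hearts against C57 adult hearts, a share close to the 9.57% of all genes that fell. Tmem70, an assembly factor of the complex, was at -0.35 ± 0.12 (adjusted p = 0.0471), with overlapping groups, and its call was lost without any 1 of the C57 adult or aged Hap-I hearts, without aged Hap-I western-diet replicate 1, 3 or 5, or without adult Hap-I western-diet replicate 1 or 3 (adjusted p = 0.0529 to 0.187). It was also lost without scaling, under quantile normalization, with no filter or a filter at 5 TPM, with the sex or atrial covariate, in the hearts with Y-linked transcripts alone and with only the groups compared (adjusted p = 0.0533 to 0.235). Atpif1, the inhibitor that stops the enzyme from running backwards, had 165, 279, 169, 283 and 193 scaled TPM in aged Hap-I western-diet hearts and 254, 237 and 303 in C57 adult hearts (log2 fold change -0.31 ± 0.21, adjusted p = 0.293). Among genes for the exchange of ATP, ADP, phosphate or phosphocreatine across the mitochondrial membranes, Ckmt2 and Vdac3 fell in that comparison. Ckmt2, the sarcomeric mitochondrial creatine kinase, was at -0.52 ± 0.12 (adjusted p = 0.00764) and Vdac3, an outer membrane channel, at -0.40 ± 0.08 (adjusted p = 0.00411). Without scaling and under quantile normalization neither was called. Slc25a4, the main ADP/ATP carrier of heart, was at -0.29 ± 0.14 and did not pass (adjusted p = 0.159); under quantile normalization it was 0.02. Ckmt2 and Vdac3 were also called lower in the mean of the 3 Hap-I groups (adjusted p = 0.0480 and 0.0296), and both calls were lost without any 1 of the C57 adult hearts (adjusted p = 0.0533 to 0.191). That of Ckmt2 was lost as well without aged Hap-I replicate 1, 3 or 4, aged Hap-I western-diet replicate 2, 3, 4 or 5, or adult Hap-I western-diet replicate 1 (adjusted p = 0.0517 to 0.0764). Both were lost in that comparison without scaling, under quantile normalization, with the sex or atrial covariate, with the length correction and in the hearts with Y-linked transcripts alone (adjusted p = 0.0560 to 0.986), and that of Ckmt2 also with no filter, a filter at 5 TPM or library weights (0.0619 to 0.0790).

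A chosen list of 44 nuclear subunit genes stands here for complexes I to IV, the respiratory chain that builds the proton gradient. Counts over this list are not counts over the whole chain. In aged Hap-I western-diet hearts against C57 adult hearts 14 of 44 fell and 0 rose, with a median of -0.40, against the 9.57% of all genes that fell. In aged Hap-I hearts 4 of 44 fell (4.06% of all genes), in adult Hap-I western-diet hearts 2 (1.5%), and in the mean of the 3 Hap-I groups 11 (6.31%), and 0 rose in each. The 4 became 15 with library weights, 18 with only the groups compared and 1 without scaling or under quantile normalization. The 2 ranged from 0 to 6 over the alternatives that leave out no single heart, and the 11 from 3 under quantile normalization, with 19 of 44 values positive, to 20 with library weights. The median in aged Hap-I western-diet hearts was -0.44 without scaling, with 18 called, and -0.11 under quantile normalization, with 5 called and 17 of 44 values positive. Without C57 adult replicates 1, 2 or 3 the count there was 7, 6 or 6, and without aged Hap-I western-diet replicate 3 it was 9. It was 4 in the hearts with Y-linked transcripts alone, 6 with the sex covariate, 7 with only the groups compared, 8 with the atrial covariate and 23 with library weights.

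Regulators of these genes were also listed. Ppargc1a and Ppargc1b encode the PGC-1 coactivators, Esrrg an estrogen-related receptor, Gabpa the DNA-binding subunit of GA-binding protein, and Ppara a receptor that drives fatty acid oxidation, and each is known to act on genes of mitochondrial metabolism. Of 17 such genes, 6 rose and 1 fell in aged Hap-I western-diet hearts against C57 adult hearts, where 12.3% of all genes rose. In aged Hap-I hearts 4 rose, beside 7.17% of all genes, in adult Hap-I western-diet hearts 1, beside 1.95%, and in the mean of the 3 Hap-I groups 6, beside 9.42%, and 0 fell in these. Without scaling the counts that rose were 2, 1, 0 and 1 in these 4 comparisons, and under quantile normalization they were 6, 5, 0 and 5. Without C57 adult replicate 1 or 3 the counts were 5, 2, 0 and 2. With the atrial covariate they were 1, 2, 0 and 2, in the hearts with Y-linked transcripts alone 1, 4, 0 and 4, and with library weights 9, 9, 7 and 9.

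Gabpa had 11, 9.70, 10.3, 10.9 and 8.44 scaled TPM in aged Hap-I western-diet hearts, 11, 9.67, 10.6 and 12.9 in aged Hap-I hearts, 7.37, 7.35, 8.59 and 9.91 in adult Hap-I western-diet hearts, and 6.21, 7.31 and 6.0 in C57 adult hearts. In scaled TPM every Hap-I heart was above every C57 adult heart, the nearest values being 7.35 and 7.31. This did not hold in unscaled TPM, where adult Hap-I western-diet replicate 2, with a size factor of 0.682, was below the C57 adult hearts. The share of all genes arranged in this way is not given here. The log2 fold change was 0.56 ± 0.11 in aged Hap-I western-diet hearts (adjusted p = 0.00411) and 0.68 ± 0.12 in aged Hap-I hearts (adjusted p = 0.00442), and neither call held without scaling (adjusted p = 0.156 and 0.0630). The first was also lost with the atrial covariate (0.0584) and in the hearts with Y-linked transcripts alone (0.0603).

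Ppargc1b had 2.76, 3.89, 4.06, 3.31 and 2.56 scaled TPM in aged Hap-I western-diet hearts, 2.06, 2.08, 2.77 and 2.54 in aged Hap-I hearts, 1.82, 3.07, 2.14 and 1.56 in adult Hap-I western-diet hearts, and 1.01, 0.952 and 1.15 in C57 adult hearts. In scaled TPM it too was higher in every Hap-I heart, again without a share of all genes given here. The log2 fold changes against C57 adult hearts were 1.07 ± 0.15, 0.72 ± 0.15 and 0.61 ± 0.15 in the 3 Hap-I groups (limma adjusted p = 0.000411, 0.0109 and 0.0429). The last of these was lost without any 1 of the C57 adult or aged Hap-I hearts, or without adult Hap-I western-diet replicate 2 or 3 (adjusted p = 0.0510 to 0.139). It was also lost without scaling, under quantile normalization, with no filter, with the sex or atrial covariate, with the length correction, in the hearts with Y-linked transcripts alone and with only the groups compared (adjusted p = 0.0597 to 0.233). The first 2 were kept in every alternative that tested the gene. At levels this low, fold changes on the log2(scaled TPM + 1) scale understate the difference.

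Ppara stood at 1.56 ± 0.33 in aged Hap-I western-diet hearts (adjusted p = 0.00480) and at 1.29 ± 0.34 in aged Hap-I hearts (adjusted p = 0.0264), and Esrrg at 0.63 ± 0.13 (adjusted p = 0.00398) and 0.51 ± 0.14 (adjusted p = 0.0261). In aged Hap-I hearts both calls were lost without C57 adult replicate 1 or 3 or without aged Hap-I replicate 3 or 4 (adjusted p = 0.0716 to 0.112). In aged Hap-I western-diet hearts both were lost with the atrial covariate (adjusted p = 0.0704 for Ppara and 0.0545 for Esrrg) and in the hearts with Y-linked transcripts alone (0.0925 and 0.0891). Ppargc1a had 14, 16.0, 14.6, 12.5 and 6.86 scaled TPM in aged Hap-I western-diet hearts and 8.33, 9.12 and 6.12 in C57 adult hearts, and its log2 fold change of 0.61 ± 0.23 did not pass (adjusted p = 0.0658). Aged western-diet replicate 5 was the low heart of its group for both Ppargc1a and Ppara. The gene that fell, Polrmt, encodes the mitochondrial RNA polymerase and was at -0.62 ± 0.18 (adjusted p = 0.0242). It lies outside the naming rule and is named as the single exception after its value was seen. Its call was lost without C57 adult replicate 1 (adjusted p = 0.0963) or 3 (0.0808), and without scaling, with the sex or atrial covariate and in the hearts with Y-linked transcripts alone (0.102 to 0.212).

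**Figure D4:**
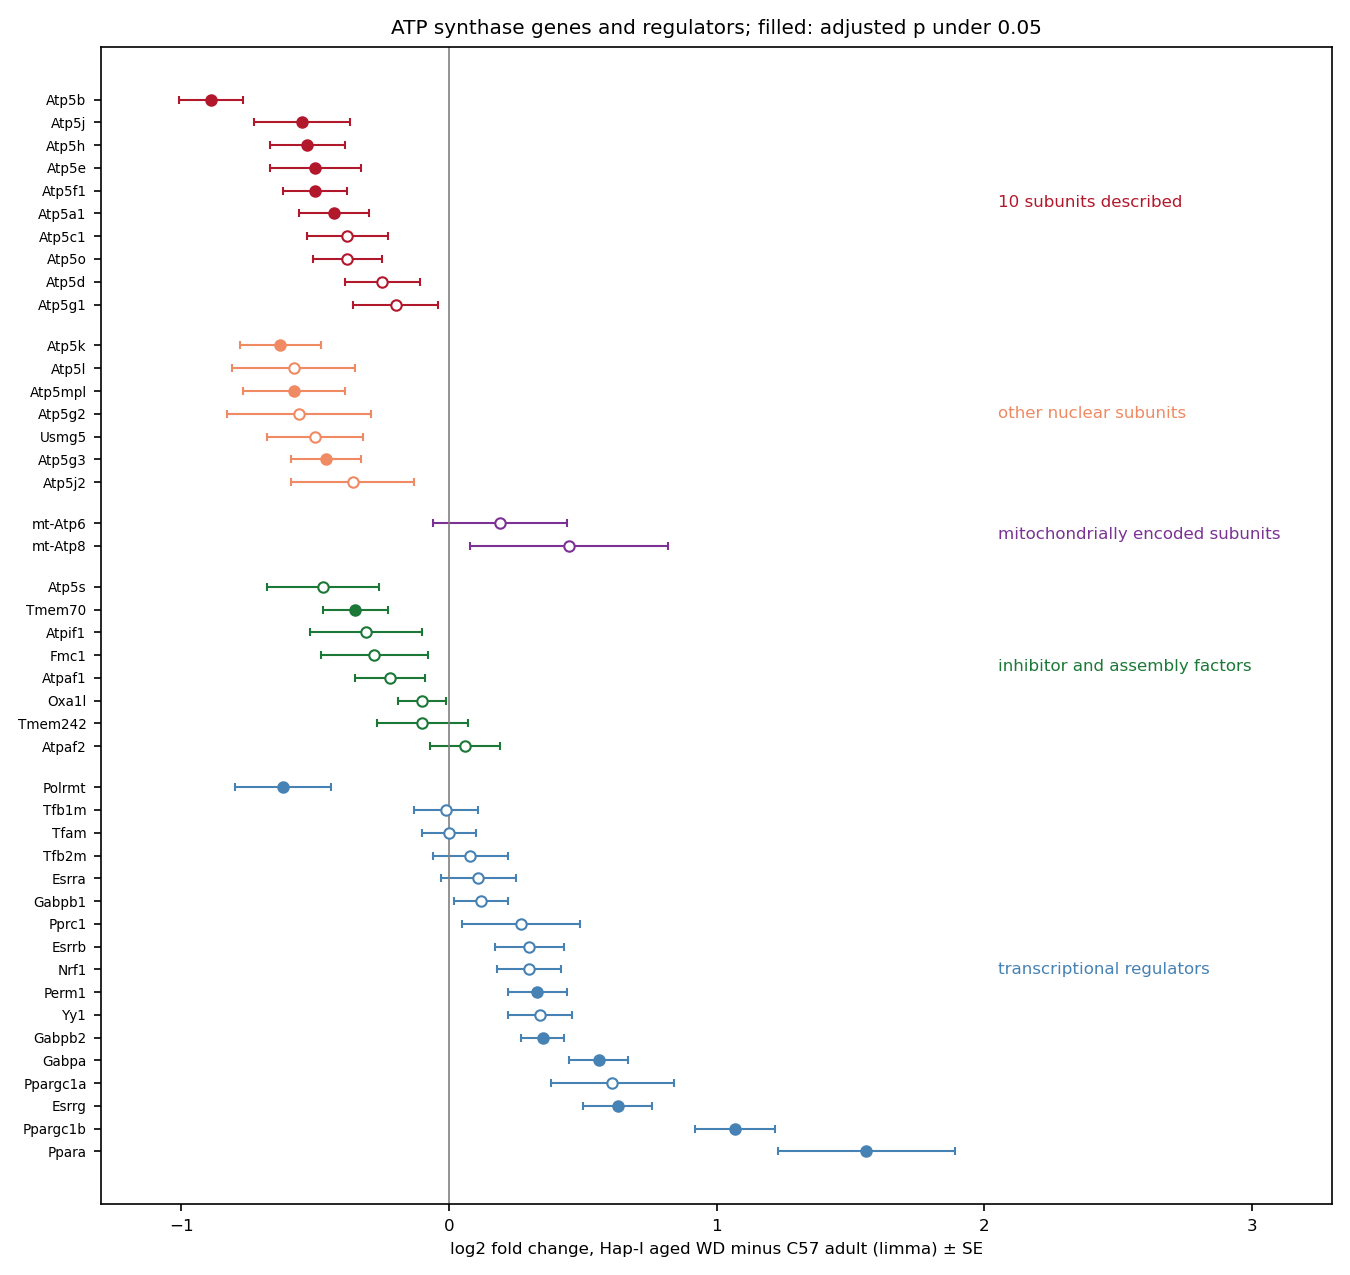
Log2 fold change with its standard error in aged Hap-I western-diet against C57 adult hearts for the 10 subunit genes, the other nuclear and the mitochondrially encoded subunits, the inhibitor and assembly factors, and transcriptional regulators of mitochondrial genes; filled points passed a limma adjusted p of 0.05. All 17 nuclear subunits lie left of zero in this scaling (under quantile normalization Atp5d and Atp5g1 do not), whereas 15 of 17 regulators lie right of zero (14 without scaling, 15 under quantile normalization).

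Promoter sequences, 250 bases before the RefSeq start sites in GRCm38.p6, are shown for Atp5b, which fell most, and for 3 other members. Those 3 hold the letters CCGGAAG or their reverse complement CTTCCGG, the core bound by ETS factors such as GA-binding protein. Each sequence is written 5′ to 3′ in the direction of the gene, and the match is in capitals. Atp5b (chr10:128083057-128083306, plus strand) has no match:
Atp5b: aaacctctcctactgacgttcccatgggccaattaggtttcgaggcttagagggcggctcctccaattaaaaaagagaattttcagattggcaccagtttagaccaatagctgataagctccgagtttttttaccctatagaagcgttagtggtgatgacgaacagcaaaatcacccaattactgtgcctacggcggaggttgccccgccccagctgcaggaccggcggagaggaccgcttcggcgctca
Atp5e: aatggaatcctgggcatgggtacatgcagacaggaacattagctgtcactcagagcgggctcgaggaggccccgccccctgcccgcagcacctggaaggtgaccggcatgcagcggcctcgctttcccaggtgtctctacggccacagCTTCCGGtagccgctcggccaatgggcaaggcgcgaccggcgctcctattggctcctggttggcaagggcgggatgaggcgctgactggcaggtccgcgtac
Atp5h: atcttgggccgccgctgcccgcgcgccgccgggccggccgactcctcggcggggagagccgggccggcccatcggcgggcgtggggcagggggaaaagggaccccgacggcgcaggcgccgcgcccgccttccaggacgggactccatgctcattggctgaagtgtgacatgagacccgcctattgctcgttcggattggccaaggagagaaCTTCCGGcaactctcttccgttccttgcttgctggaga
Atp5j: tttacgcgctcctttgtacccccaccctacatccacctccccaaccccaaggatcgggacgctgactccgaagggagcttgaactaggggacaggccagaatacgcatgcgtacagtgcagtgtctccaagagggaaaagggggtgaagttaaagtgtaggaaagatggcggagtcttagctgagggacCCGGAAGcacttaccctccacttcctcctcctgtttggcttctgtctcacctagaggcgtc
The last 3 are chr2:174464102-174464351, chr11:115419920-115420169 and chr16:84834977-84835226, all on the minus strand. The match begins 102 bases before the start of Atp5e, 38 before that of Atp5h and 61 before the second of the RefSeq starts of Atp5j, and it reads as CCGGAAG along the gene in Atp5j.

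Of the 9 members whose promoters were searched, 3 held this motif on either strand, beside 7.83% of 27025 genes. The NRF1 motif was in 0 of 9 (0.88% of genes) and TCAAGGTCA of the estrogen-related receptors in 0 of 9 (0.42%). CCAAT was in 5 of 9 (37.49%), GGGCGG of SP1 in 4 of 9 (35.36%) and TATAAA in 0 of 9 (14.33%), each on either strand and with overlaps between motifs allowed. All 3 members with the ETS motif, Atp5e, Atp5h and Atp5j, were called lower in aged Hap-I western-diet against C57 adult hearts. Of the 6 searched without it Atp5b and Atp5f1 were, and Atp5a1, also called, was not searched. Among the other nuclear subunits Atp5l held the ETS letters too, 212 bases before its start, and was not called. Of those subunits, Atp5k, which was called, and Atp5g2, which was not, held the NRF1 motif. Atp5g3, which was called, held that of the estrogen-related receptors. These letters describe the windows and say nothing of binding.

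The Atp5j window lies where 2 genes meet. Atp5j (ENSMUSG00000022890) runs on the minus strand of chromosome 16 from 84827866 to 84835625, and Gabpa runs on the plus strand from 84834925 to 84863779, so the first 701 bases of the 2 loci overlap head to head in GRCm38. Gabpa was higher and Atp5j lower in aged Hap-I western-diet than in C57 adult hearts. The library kit preserves strand, but whether strand was used in the counting is not given in the sources used here, and 15.9% of the 31-base words of Atp5j occur in other genes, Gabpa first among them.

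Other genes share sequence too. The share of 31-base words found elsewhere was 59.5% for Atp5o, 46.9% for Atp5h, 45.9% for Atp5f1, 14.1% for Atp5g1 and 10.1% for Atp5c1, the leading sharers being D430001F17Rik, Gm10250 and Gm12231 for the first 3, so the levels of Atp5o, Atp5h and Atp5f1 are uncertain to that extent. Among the other genes with values above, it was 85.4% for Atp5l, 53.2% for Vdac3 (with Vdac3-ps1 first), 41.9% for Atpif1, 40.2% for Atp5g2 and 18.9% for Atp5k, whose levels are uncertain likewise. It was 4.1% for Atp5b, 3.4% for Atp5a1 and 0.0% for Atp5d and Atp5e.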

How the data were processed

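Heart RNA of 16 mice was extracted with a column kit and made into strand-preserving poly(A) libraries, per the labels' protocols. The authors deposited 1 table of TPM per gene. Tools named in the submitters' processing notes are kallisto and DESeq2, with the build GRCm38 and no versions. Sequencing depth is unknown. Groups follow the sample labels, and the tests judge differences between groups against the spread between mice.

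Genes reaching 1 TPM in 3 or more libraries were kept, 11415 in all, and from them a size factor per library was computed as a median of ratios. The log2 of scaled TPM plus 1 was fitted with limma 3.58.1 (R 4.3.3, variance trend) with 1 mean for each of the 4 groups. P-values were adjusted by Benjamini-Hochberg over all genes kept, within each of 7 comparisons, with a threshold of 0.05. Fold changes are on that log2 scale. The fit was tested on simulated data. The Atp5g1 share was tested by two-sided exact permutation (scipy 1.17.1), adjusted over 7 comparisons. Shared 31-base words and loci come from GENCODE transcripts of GRCm38, promoters from RefSeq.

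Members and lists were chosen with earlier results of these data known. All 10 members are named in each comparison, and of other lists called genes, at most 4 of smallest p per list and comparison, with the other subunits, Atpif1, Ppargc1a and Slc25a4 in any case. The alternatives were other scalings, pseudocounts of 0.1 and 0.5, other filters, no variance trend, library weights, covariates for sex and atrial markers, a length correction, subsets of the libraries, an adjusted p under 0.01 and the omission of each library. Applying them to the other named genes and lists was decided after seeing the data. Some results of the gene lists are not reported here.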

Additional observations from a re-analysis of the deposited data

How the results depend on the processing

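No paired analysis was possible because the labels give the groups no shared replicate numbers. Among the 10 genes, Atp5b was called lower in aged Hap-I western-diet hearts and in the mean of the 3 Hap-I groups against C57 adult hearts in every alternative at an adjusted p under 0.05. Depth is unknown, and 3 C57 adult hearts limit the comparisons with that group. The causes of the changes below were not tested.

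Of 10 genes called, the count in aged Hap-I western-diet against C57 adult hearts was 6, and it was 1 under quantile normalization, 2 in the hearts with Y-linked transcripts, 2 at an adjusted p under 0.01, and 3 with the sex covariate, the atrial covariate or only the groups compared. In aged Hap-I against C57 adult hearts the count of 1 became 0 without scaling, under quantile normalization or at 0.01, 2 without a variance trend or with the length correction, 3 in the hearts with Y-linked transcripts, and 6 with library weights or only the groups compared. In adult Hap-I western-diet against C57 adult hearts the count of 1 became 2 without scaling, and 0 under quantile normalization, no filter, either covariate, the hearts with Y-linked transcripts, only the groups compared or 0.01. In the mean of the 3 Hap-I groups the count of 2 became 4 without scaling or with the length correction, 6 with library weights, and 1 under quantile normalization, either covariate or 0.01. In aged against adult Hap-I western-diet hearts the count of 0 became 1 without a variance trend and 3 with library weights. Leaving out 1 heart gave 2 to 8, 0 to 2, 0 to 1, 1 to 5 and 0 to 1 in these 5 comparisons in the order given here, and 0 to 0 in the others.

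The median log2 fold change of the 10 genes without scaling was -0.285 in aged Hap-I western-diet against aged Hap-I hearts, -0.091 in aged against adult Hap-I western-diet hearts, 0.210 in aged Hap-I against adult Hap-I western-diet hearts, -0.142 in aged Hap-I and -0.359 in adult Hap-I western-diet against C57 adult hearts, while the median of all genes moved to -0.159, 0.111, 0.272, 0.127 and -0.132. Under quantile normalization it was -0.090 in aged against adult Hap-I western-diet hearts, and against C57 adult hearts -0.033 in aged Hap-I, -0.006 in adult Hap-I western-diet and -0.098 in aged Hap-I western-diet hearts, and -0.053 in the mean of the 3. In the hearts with Y-linked transcripts it was 0.020 in aged Hap-I western-diet against aged Hap-I hearts and -0.005 in aged against adult Hap-I western-diet hearts. Leaving out 1 heart moved no median across zero.

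Single genes changed sign as follows. In aged Hap-I western-diet against aged Hap-I hearts, Atp5g1 was -0.182 without scaling, -0.036 with library weights and -0.046 with the atrial covariate, and Atp5e was 0.008 and Atp5j 0.056 under quantile normalization. Atp5j was 0.013 with the sex covariate there, and in the hearts with Y-linked transcripts Atp5d was 0.056, Atp5e 0.065, Atp5o 0.027, Atp5h 0.014 and Atp5j 0.195. Leaving out 1 heart gave -0.102 to 0.0280 for Atp5d, -0.111 to 0.0460 for Atp5e, -0.101 to 0.108 for Atp5j and -0.0840 to 0.0920 for Atp5g1. In aged against adult Hap-I western-diet hearts, Atp5d was 0.030 without scaling, 0.012 under quantile normalization and 0.032 in the hearts with Y-linked transcripts, where Atp5e was 0.021, Atp5g1 0.038 and Atp5j 0.071, and Atp5g1 was 0.007 under quantile normalization. In aged Hap-I against adult Hap-I western-diet hearts without scaling, Atp5b was 0.299, Atp5c1 0.209, Atp5d 0.277, Atp5e 0.146, Atp5f1 0.156, Atp5g1 0.164, Atp5o 0.210, Atp5h 0.234 and Atp5j 0.058. There Atp5b was 0.323, Atp5d 0.018 and Atp5h 0.075 under quantile normalization, Atp5d was 0.030 with the length correction, and Atp5a1 was -0.017 and Atp5c1 0.003 in the hearts with Y-linked transcripts. Leaving out 1 heart gave -0.129 to 0.0110 for Atp5b, -0.152 to 0.00300 for Atp5d, and -0.603 to 1.00 percentage points for the Atp5g1 share of c-subunit TPM.

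Against C57 adult hearts, Atp5a1 was 0.099 without scaling in aged Hap-I hearts. Under quantile normalization Atp5a1 was 0.215, Atp5c1 0.032, Atp5d 0.007 and Atp5g1 0.137 in aged Hap-I hearts, Atp5a1 0.018, Atp5c1 0.083, Atp5f1 0.014 and Atp5g1 0.168 in adult Hap-I western-diet hearts, Atp5d 0.001, Atp5g1 0.176 and Slc25a4 0.020 in aged Hap-I western-diet hearts, and Atp5a1 0.048, Atp5c1 0.036 and Atp5g1 0.160 in the mean of the 3. In adult Hap-I western-diet hearts Atp5g1 was 0.020 with library weights, and leaving out 1 heart gave -0.132 to 0.0540 for Atp5g1 and -0.183 to 0.0160 for Atp5c1. In aged Hap-I western-diet hearts mt-Atp6 was -0.023 with the atrial covariate. Over all genes, 1404 rose and 1092 fell in aged Hap-I western-diet against C57 adult hearts, and the calls numbered 614 to 3735 under the alternatives that keep all hearts or a subset, or 1256 to 2700 without 1 heart.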
